A study of Homo sapiens with 8 samples.

Results

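Cohesin and its regulators were followed as a set of 10 genes among the 43317 genes of an Agilent 2-colour array. The genes were picked by symbol. The 5 core subunits were SMC1A, SMC3, RAD21, STAG1 and STAG2, and the 5 regulators were ESCO1, ESCO2, CDCA5, PDS5A and PDS5B. All 10 had a probe and all 10 were detected on all 8 arrays, detection being a signal that the scanner software called well above background in either channel. The brightest probe stood for each gene.

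Cohesin is a ring-shaped protein complex that holds sister chromatids together from DNA replication until anaphase and that folds interphase chromatin into loops. SMC1A and SMC3 form the coiled-coil arms of the ring, RAD21 closes it, and STAG1 or STAG2 binds RAD21. ESCO1 and ESCO2 acetylate SMC3, CDCA5 (sororin) then protects the ring from release, and PDS5A and PDS5B are scaffolds on which both steps take place. ESCO2 and CDCA5 are known to be made mainly in proliferating cells, whereas ESCO1 and the core subunits are present through the cell cycle.

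RNA of mock cells was labelled with Cy3 and RNA of transfected cells with Cy5, and each of the 8 arrays compared 1 transfected culture with mock cells of the same line. The study asked which genes respond to a tumor-suppressive miRNA strand in prostate cancer cells. PC3, a prostate cancer line without androgen dependence, received either strand of miR-150, miR-99a-3p or miR-100-3p. FaDu, a line from a hypopharyngeal squamous cell carcinoma, received miR-99a-5p or miR-99a-3p. PANC-1, a pancreatic cancer line, received either of 2 siRNAs against the transcription factor gene FOXQ1. Lipofectamine RNAiMAX carried the RNAs, and the labels describe the mock cells as not transfected. An array with a control miRNA or siRNA was not analysed here, so the effect of transfection itself cannot be told apart from that of the RNA.

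Each condition had 1 array and mock cells were in Cy3 on all 8, so no ratio below carries a test. The error given with a log2 ratio is the spot error of the scanner software, which leaves out differences between cultures and lay between 0.20 and 0.51 for the members. The keratin genes KRT5 and KRT14 were well above background in mock cells of FaDu and in none of the PC3 or PANC-1 mock channels. KLK3, a gene of androgen-dependent prostate cells, was not well above background in any of the lines. FOXQ1 had a log2 ratio of −2.16 with si-FOXQ1-1 and −2.12 with si-FOXQ1-2, with spot errors of 0.29 and 0.28.

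The transfected miRNAs are shown because miR-99a-3p, with which ESCO2 and CDCA5 were lowest in PC3 cells, differs from miR-100-3p by few bases. In FaDu cells with miR-99a-3p both genes lay above mock. RefSeq (GRCh38.p14) held 3 of the 5 miRNAs, printed 5′ to 3′ with the seed, bases 2 to 8, in capitals.
miR-99a-5p: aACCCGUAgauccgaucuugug
miR-99a-3p: cAAGCUCGcuucuaugggucug
miR-100-3p: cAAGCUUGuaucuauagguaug
Both strands of miR-99a lie on the plus strand of chromosome 21, at chr21:16539101-16539122 and chr21:16539138-16539159, and miR-100-3p lies on the minus strand at chr11:122152240-122152261. Counted from the 5′ end, miR-99a-3p and miR-100-3p differ at 5 of 22 positions. The change C7U is in the seed, and C9U, U10A, G16A and C20A are outside it, so the 3 miRNAs have 3 different seeds.

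In PC3 cells with miR-99a-3p, the S-phase regulators ESCO2 and CDCA5 lay far below mock. The core subunits SMC1A, SMC3 and RAD21 lay moderately below mock, and ESCO1 lay above it. The log2 ratio of CDCA5 was −2.48 (spot error 0.31), or 5.59-fold lower than mock. The 5 core subunits lay between −1.20 and −0.46 with their brightest probes. STAG1, at −0.73, had a Cy5 signal not well above background, so no decrease is shown for it. The 4 STAG2 probes spread from −0.63 to 0.86, so no direction is drawn for STAG2. In these bulk samples, fewer cells that express a gene and less RNA per cell cannot be told apart. Of the 10 members, 3 had a log2 ratio below −1, which was so for 7.39% of all detected genes, and none had one above 1, against 4.23%. The 3 genes were SMC1A, ESCO2 and CDCA5.

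**Figure D1:**
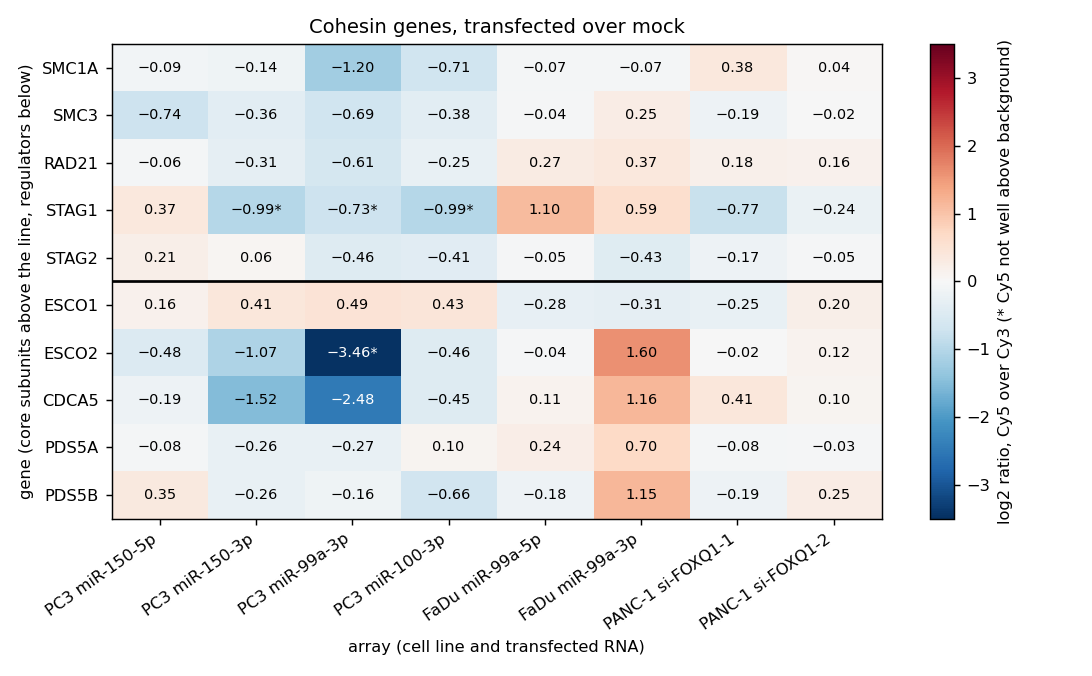
Log2 ratio of transfected over mock cells for 10 cohesin genes (rows, core subunits above the line) on 8 arrays (columns), 1 array per condition; an asterisk marks a Cy5 signal not well above background. The lowest values, −3.46 and −2.48, were those of ESCO2 and CDCA5 in PC3 cells with miR-99a-3p, and both genes were above 1 in FaDu cells with the same miRNA.

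CDCA5 encodes sororin, which keeps cohesin on replicated chromatids. Its probe lies at chr11:64844996-64845055 on hg19, the build of the array annotation. On the 4 PC3 arrays its log2 ratio was −2.48 with miR-99a-3p, −1.52 with miR-150-3p, −0.45 with miR-100-3p and −0.19 with miR-150-5p. The Cy3 and Cy5 signals behind the lowest value were 11397 in mock cells and 2041 in transfected cells, both far above background. In FaDu cells the ratio was 1.16 (spot error 0.23) with miR-99a-3p, from signals of 4633 and 10369, and 0.11 with miR-99a-5p. In PANC-1 cells it was 0.41 with si-FOXQ1-1 and 0.10 with si-FOXQ1-2. The gene thus lay below mock on all 4 PC3 arrays and above mock on the 4 arrays of the other lines, with −0.19, 0.11 and 0.10 within their spot errors. A further CDCA5 probe was not above background in both channels on any array.

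ESCO2 encodes the acetyltransferase that modifies SMC3 during DNA replication. With miR-99a-3p in PC3 cells its mock signal was 332, and the signal of transfected cells, 30.3, was not well above background. The log2 ratio of −3.46 therefore has no measured numerator. Against 73.4, the brightest Cy5 signal on that array without a call above background, expression was at least 4.52-fold lower. This bound, a log2 ratio of −2.18, holds for the deposited signals only. With normexp and loess ESCO2 was at −1.69 there, a smaller decrease. ESCO2 belongs to the genes that the study selected on this array, so its low value there is no independent evidence.

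On the other arrays ESCO2 was measured in both channels. The log2 ratio was 1.60 (spot error 0.25) in FaDu cells with miR-99a-3p, from signals of 265 in mock and 807 in transfected cells. It was −1.07 (spot error 0.23) in PC3 cells with miR-150-3p, −0.48 with miR-150-5p and −0.46 with miR-100-3p. FaDu cells with miR-99a-5p had −0.04, and PANC-1 cells had −0.02 and 0.12 with the siRNAs, all within the spot error. The less bright ESCO2 probe gave 1.32 in FaDu cells with miR-99a-3p and −1.25 in PC3 cells with miR-150-3p, so both probes placed the gene past 2-fold on both arrays. With normexp and loess the brightest probe was at −0.75 in PC3 cells with miR-150-3p, within 2-fold.

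**Figure D2:**
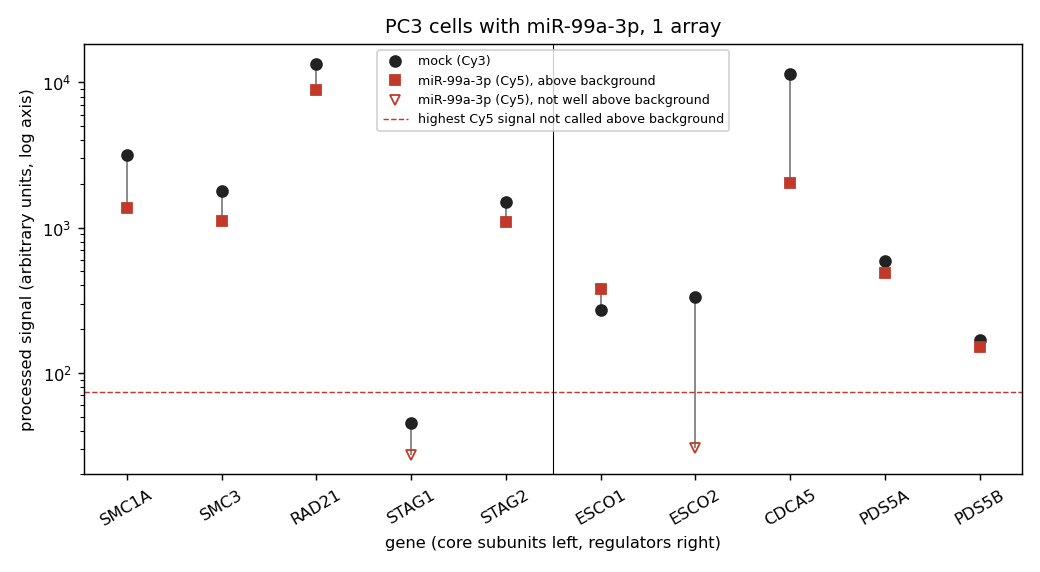
Processed signals of the 10 genes on the array of PC3 cells with miR-99a-3p (log axis, arbitrary units), with mock cells as circles and transfected cells as squares, or as open triangles where that signal failed the background call; the dashed line, at 73.4, is the brightest Cy5 signal without a call above background. ESCO2 went from 332 in mock cells to below the line, and STAG1 lay below the line in both channels. The line is for Cy5 only, and the STAG1 mock signal in Cy3, 45.1, was called well above background.

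ESCO1 encodes the acetyltransferase that acts on cohesin outside of replication. Its log2 ratio in PC3 cells was 0.49 with miR-99a-3p (spot error 0.22), 0.43 with miR-100-3p, 0.41 with miR-150-3p and 0.16 with miR-150-5p. In FaDu cells it was −0.28 with miR-99a-5p and −0.31 with miR-99a-3p, and in PANC-1 cells −0.25 and 0.20 with the siRNAs. ESCO1 was thus above mock on all 4 PC3 arrays, on which ESCO2 was below mock, and no value reached 2-fold. The values 0.16 with miR-150-5p and 0.20 with si-FOXQ1-2 were within their spot errors, 0.21 and 0.24. A single probe measured it.

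PDS5A and PDS5B encode the 2 HEAT-repeat proteins that bind the ring beside RAD21. PDS5B stood at a log2 ratio of 1.15 (spot error 0.25) in FaDu cells with miR-99a-3p, with signals of 144 in mock and 320 in transfected cells. Its values on the PC3 arrays were 0.35 with miR-150-5p, −0.16 with miR-99a-3p, −0.26 with miR-150-3p and −0.66 with miR-100-3p. PDS5B was at −0.18 in FaDu cells with miR-99a-5p, and at −0.19 and 0.25 in PANC-1 cells.

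PDS5A lay between −0.27 and 0.24 on 7 arrays, and at 0.70 (spot error 0.22) in FaDu cells with miR-99a-3p. Its 3 probes did not give 1 direction on that array, since the others read 0.12 and −1.07. The probe at −1.07 lies at chr4:39899975-39900034 and the brightest at chr4:39825083-39825142 (hg19), so no direction is drawn for PDS5A in FaDu cells.

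Among the core subunits, SMC1A, the arm that pairs with SMC3, had the lowest ratio measured in both channels. In PC3 cells it was −1.20 with miR-99a-3p (spot error 0.23), from signals of 3169 and 1375, and −0.71 with miR-100-3p. With miR-150-5p and miR-150-3p it was −0.09 and −0.14, within the spot error. The 3 SMC1A probes read between −1.23 and −1.15 with miR-99a-3p and between −1.18 and −0.46 with miR-100-3p. In FaDu cells the brightest SMC1A probe was at −0.07 with either miRNA, and in PANC-1 cells at 0.38 and 0.04. The 3 probes spread from −0.19 to 0.38 with si-FOXQ1-1 and from −0.69 to 0.18 with si-FOXQ1-2. No direction is therefore drawn for SMC1A in PANC-1 cells.

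SMC3, the arm that is acetylated, had log2 ratios in PC3 cells of −0.74 with miR-150-5p, −0.69 with miR-99a-3p, −0.38 with miR-100-3p and −0.36 with miR-150-3p. In FaDu cells it was at −0.04 with miR-99a-5p and 0.25 with miR-99a-3p, and in PANC-1 cells at −0.19 and −0.02. Among the core subunits, SMC3 alone had its lowest PC3 value with miR-150-5p, although its values with miR-150-5p and miR-99a-3p differed by less than their spot errors, 0.21 each.

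RAD21, the subunit that separase cuts at anaphase, stayed within 2-fold of mock on all arrays. In PC3 cells its log2 ratio was −0.61 with miR-99a-3p, −0.31 with miR-150-3p, −0.25 with miR-100-3p and −0.06 with miR-150-5p. In FaDu cells it was 0.27 with miR-99a-5p and 0.37 with miR-99a-3p, and with the siRNAs 0.18 and 0.16. The values −0.06, 0.18 and 0.16 were within their spot errors. On the 5 other arrays RAD21 was below mock in PC3 and above it in FaDu cells. Its range over the arrays was 0.98, against 3.64 for CDCA5.

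STAG2, the more abundant of the STAG pair in many somatic cells, was between −0.46 and 0.21 on all 8 arrays with its brightest probe. Its 4 probes spread from −1.16 to 0.20 in FaDu cells with miR-99a-3p and from −0.63 to 0.86 in PC3 cells with miR-99a-3p, which is wider than the range of the brightest probe over the arrays. STAG1, its paralog, was close to the detection limit. Mock signals of STAG1 were between 33.3 and 84.2, and Cy5 was not well above background in PC3 cells with miR-150-3p, miR-99a-3p or miR-100-3p. Its ratio was 1.10 (spot error 0.32) in FaDu cells with miR-99a-5p, from signals of 35.7 and 76.4, and −0.77 in PANC-1 cells with si-FOXQ1-1.

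Counts past 2-fold were small on the other arrays. In PC3 cells with miR-150-3p, 2 members, ESCO2 and CDCA5, lay below −1, against 6.68% of all detected genes, and none lay above 1, against 2.69%. In FaDu cells with miR-99a-3p, 3 members, ESCO2, CDCA5 and PDS5B, lay above 1, against 8.25%, and none lay below −1, against 9.37%. With normexp background correction and loess, PDS5B was at 0.72 there and 2 members lay above 1. FaDu cells with miR-99a-5p had 1 member above 1, the dim STAG1, against 0.851%, and none below −1, against 4.86%. No member passed 2-fold in PC3 cells with miR-150-5p, where 4.49% of genes lay below −1 and 0.664% above 1, or with miR-100-3p, where the shares were 3.34% and 0.987%. None passed it in PANC-1 cells, where 3.31% and 3.29% of genes lay below −1 with si-FOXQ1-1 and si-FOXQ1-2, and 0.905% and 0.412% above 1.

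The contrast of core subunits with regulators depended on which regulators were taken. In PC3 cells with miR-99a-3p the median log2 ratio was −0.69 over the core and −0.27 over the 5 regulators, the latter being the value of PDS5A. With ESCO2 at its bound in the deposited signals, a log2 ratio of −2.18, the median of ESCO2 and CDCA5 was −2.33. In those signals this median lay at least 1.64 below the core. In FaDu cells with miR-99a-3p the core median was 0.25, the median of the 5 regulators 1.15, and that of ESCO2 and CDCA5 1.38. In PC3 cells with miR-150-3p the core was at −0.31, the 5 regulators at −0.26, and ESCO2 and CDCA5 at −1.29. On the other 5 arrays the median of the 5 regulators was within 0.14 of the core median. The median of all detected genes was between −0.03 and 0.02 on every array.

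The same miRNA gave different values in 2 cell lines. With miR-99a-3p, CDCA5 was at −2.48 in PC3 and 1.16 in FaDu cells, a difference of 3.64 with a combined spot error of 0.38. SMC1A differed by 1.14 (combined spot error 0.31), RAD21 by 0.98 (0.30), SMC3 by 0.94 (0.30) and PDS5B by 1.31 (0.35), all being higher in FaDu. ESCO1 differed the other way, with 0.49 in PC3 and −0.31 in FaDu cells. STAG2 was at −0.46 and −0.43 with its brightest probe, which differ by less than the spot error. Its 4 probes spread from −0.63 to 0.86 in PC3 and from −1.16 to 0.20 in FaDu cells. No likeness of the lines is therefore drawn for STAG2. With 1 array per line, the difference was not tested, and cell line and culture cannot be told apart.

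The mock channels of a line were compared with each other, over probes with at least 5 spots. In 4 pairs of arrays of 1 line, the same spot differed between the mock channels by an SD of 0.07 on the log2 scale, below the 0.08 to 0.09 by which repeated spots of 1 array differed. These pairs were both FaDu arrays, both PANC-1 arrays, PC3 miR-150-5p with miR-150-3p, and PC3 miR-99a-3p with miR-100-3p. The other 4 pairings of PC3 mock channels differed by an SD of 0.17 to 0.19. Over all spots above background the SD was larger, 0.11 to 0.12 in the first 4 pairs and 0.22 to 0.23 in the other 4. The 8 mock channels were counted as 4 mock RNAs, 2 of PC3 and 1 each of FaDu and PANC-1. The count rests on the repeated probes, on which the paired channels differed by less than the spot noise. The labels do not say whether RNA was shared.

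**Figure D3:**
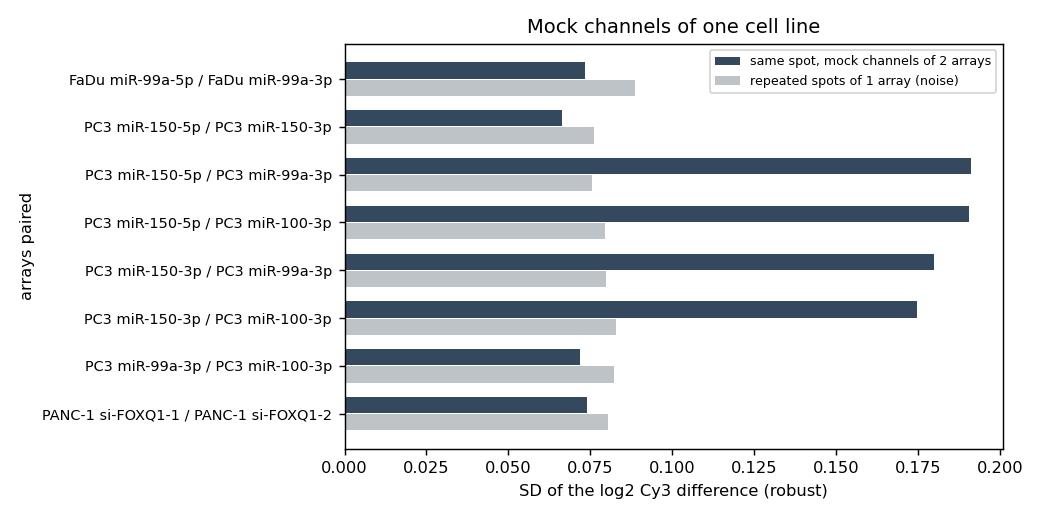
Robust SD of the log2 Cy3 difference between the mock channels of 2 arrays of 1 line, for the same spot (dark bars) and for repeated spots of 1 array (light bars), over probes with at least 5 spots. The dark bar is the shorter one in 4 pairs and is between 0.17 and 0.19 in the 4 pairings of PC3 arrays counted under different mock RNAs.

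The 2 PC3 mock RNAs also gave a measure of how far mock samples of 1 line differ. Over the members they differed by 0.06 to 0.28 on the log2 scale, with 0.26 for CDCA5, 0.21 for ESCO2, 0.22 for RAD21 and 0.06 for SMC1A. Each mock RNA is a mean of 2 channels here, and single channels can lie further apart. SMC1A was at 3.59 and 3.41 in the channels of PC3 mock RNA 1. The dim STAG1 was at −2.61 and −1.71 in those of PC3 mock RNA 2. The log2 ratios of CDCA5 with miR-99a-3p and miR-150-3p, and of SMC1A with miR-99a-3p, are several times larger than each gene's difference between the mock RNAs. Those of RAD21 with miR-100-3p (−0.25) and of ESCO1 with miR-150-5p (0.16) are not.

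Within a pair of arrays counted as 1 mock RNA, the ratios differ through the transfected cells, the spots and the dye normalization of each array. Between miR-99a-3p and miR-100-3p in PC3 cells, 2 of the 10 members differed by more than 2 combined spot errors, as did 23.2% of all genes detected on both arrays. CDCA5 was lower by 2.03 (combined spot error 0.37) with miR-99a-3p, and ESCO2 was at −3.46, below background, against −0.46. SMC1A, at −1.20 and −0.71, differed by 0.50 with a combined error of 0.32. ESCO1 and the brightest STAG2 probe differed by 0.05 each. The 4 STAG2 probes spread from −0.63 to 0.86 with miR-99a-3p and from −0.61 to 0.25 with miR-100-3p, so no likeness is drawn for STAG2. The 2 miRNAs thus gave close values for ESCO1 and distant ones for CDCA5.

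Between the strands of miR-150 in PC3 cells, 2 members passed that limit, against 17.8% of all genes. CDCA5 was lower by 1.33 with miR-150-3p (combined spot error 0.32). STAG1 was at −0.99, with Cy5 not well above background, against 0.37. ESCO2, lower by 0.59 (0.32) with miR-150-3p, did not pass it. Between the strands of miR-99a in FaDu cells, ESCO2 was higher by 1.64 with miR-99a-3p, PDS5B by 1.33 and CDCA5 by 1.05, and these were the 3 members past 2 combined spot errors, against 27.6% of all genes. In PANC-1 cells no member passed that limit between the siRNAs, against 7.62% of all genes, and the largest difference was 0.52, for STAG1.

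Levels in mock cells differed between the lines. Each level is the log2 Cy3 signal less the 75th percentile of the array, and levels of different genes are not compared, since they come from different probes. CDCA5 had 5.54 ± 0.18 in PC3 (SD, n = 2 mock RNAs), 4.36 in FaDu and 5.76 in PANC-1 cells. For CDCA5, FaDu was below both other lines, and PC3 and PANC-1 were not called different in either fit. RAD21 was at 6.18 in FaDu, 5.75 ± 0.15 in PC3 and 4.70 in PANC-1 cells. SMC3 was at 4.10 in FaDu, 4.04 in PANC-1 and 2.82 ± 0.12 in PC3 cells, so that PC3 had the lower level. ESCO2 was at 0.33 ± 0.15 in PC3, 0.22 in FaDu and −0.84 in PANC-1 cells, so PANC-1 had the lower level.

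The differences were tested with limma across 21496 genes, with Benjamini-Hochberg adjustment. With the 8 mock channels taken as separate, 5 members differed between PC3 and FaDu, where 77.9% of all genes did, 6 between PC3 and PANC-1, where 69.4% did, and 8 between FaDu and PANC-1, where 72.4% did. With 4 mock RNAs the counts were 4, 5 and 5, against 60.6%, 48.6% and 51.1% of all genes. The members' shares lay near or below those of all genes. With 4 mock RNAs, FaDu and PANC-1 have 1 sample each and are assumed to vary like the PC3 pair, so no p is given for FaDu against PANC-1, where single samples are compared. Separate cultures are not stated, so the p-values measure only the spread between these samples, which may be technical.

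With 4 mock RNAs, SMC3 was 1.28 lower in PC3 than in FaDu cells (SE 0.17, adjusted p = 0.0063) and CDCA5 was 1.17 higher (SE 0.19, adjusted p = 0.010). RAD21 was 1.04 higher in PC3 than in PANC-1 cells (SE 0.18, adjusted p = 0.015), and ESCO2 was 1.16 higher in PC3 than in PANC-1 cells (SE 0.18, adjusted p = 0.011). The other settings take channels of 1 mock RNA as separate samples, so only differences are given for them. Over all settings these differences ran from −1.33 to −1.22 for SMC3, from 0.99 to 1.22 for RAD21 and from 0.77 to 1.51 for ESCO2. The difference of CDCA5 ran from 0.47 to 1.23. CDCA5 was not called with the mean over both probes, of which 1 is below background. RAD21 lost its call between PC3 and FaDu with 4 mock RNAs, where it was 0.43 lower in PC3 cells. Its difference in that contrast ran from −0.48 to −0.26 over all settings.

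**Figure D4:**
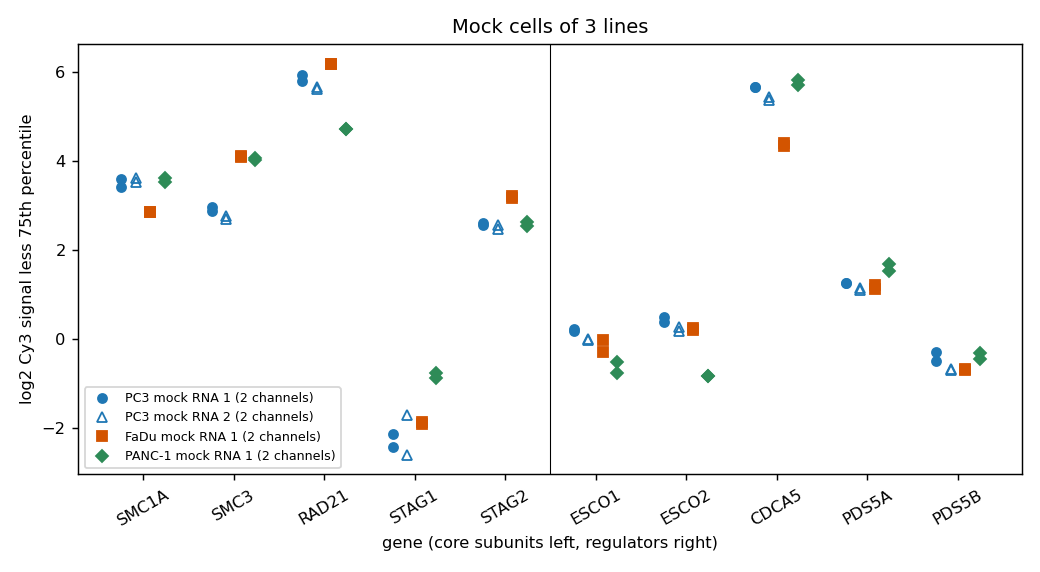
Level of the 10 genes in mock cells, as log2 Cy3 signal less the array's 75th percentile, with 1 point per channel and a symbol per mock RNA. CDCA5 was lowest in FaDu, at 4.36, RAD21 lowest in PANC-1, at 4.70, and SMC3 lowest in PC3, at 2.82.

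Other genes of the cohesin cycle were read as a list of 22, of which 20 were detected on each array. SMC1B and RAD21L1, meiotic subunits, were not above background. In PC3 cells with miR-99a-3p, 10 of the 20 lay below −1, against 7.39% of all detected genes, and none above 1, against 4.23%. Their median was −1.0 against 0.02 over all detected genes. The lowest was DSCC1 at −3.58 (spot error 0.40), a part of the clamp loader that works with acetylation of SMC3, while its partners CHTF18 and CHTF8 were at −1.77 and 0.26. SGOL1 (now SGO1), which guards centromeric cohesin, was at −2.37 and AURKB, the kinase of the centromere, at −2.24. SGOL1 is, like ESCO2, a gene that the study selected on this array, so its low value there is no independent evidence. PTTG1 (securin) was at −1.82 and its target ESPL1 (separase) at −1.59, while PLK1, which drives removal of cohesin in prophase, was at −1.18. The replisome genes TIMELESS, WDHD1 and TIPIN were at −1.77, −1.70 and −1.10.

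The other 10 detected genes of the list lay within 2-fold of mock on that array. NIPBL, the loader, was at −0.03 and its partner MAU2 at 0.05, WAPAL (now WAPL), which opens the ring, at 0.42, CTCF, which stops loops, at −0.25, and HDAC8, which deacetylates SMC3, at 0.18. The helicase gene DDX11 was at −0.90, SGOL2 (now SGO2), a relative of SGOL1, at −0.66, and the meiotic subunits REC8 and STAG3 at 0.68 and −0.18. In FaDu cells with miR-99a-3p, 4 of the 20 lay above 1, against 8.25% of all detected genes, and none below −1, against 9.37%. They were DSCC1 at 1.62, AURKB at 1.55, WDHD1 at 1.45 and ESPL1 at 1.01. With miR-150-3p in PC3 cells, 3 lay below −1, against 6.68%, and 1 above 1, against 2.69%. DSCC1 was at −1.38, AURKB at −1.25 and TIMELESS at −1.02, and the meiotic subunit REC8 was at 1.52. No gene of the list passed 2-fold on the other 5 arrays.

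The genes whose log2 ratios followed those of CDCA5 most closely over the 8 arrays, by Pearson's r among 15940 genes, were GINS2 (0.998), GINS4, EXOSC3, TOPBP1 and CDT1 (0.992). Those closest to RAD21 were C1orf112 (0.989), DEK, POLA1, NUSAP1 and PLK1 (0.984). The 8 points may share mock RNAs in pairs. Without the array of PC3 cells with miR-99a-3p, r was 0.999 for GINS2 and 0.987 for C1orf112. GINS2 ran from −2.39 to 1.21, close to the range of CDCA5, whereas EXOSC3 had a similar order over a range of only −0.54 to 0.46.

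Promoter sequence is shown because CDCA5 and the core subunits lay at different distances from mock. RefSeq promoters (GRCh38.p14, 250 bases before to 50 after the start) were at hand for 7 members with 10 promoters, those of CDCA5, SMC1A, SMC3, STAG1, STAG2, PDS5A and PDS5B. Both strands were searched for the E2F motif, as TTTCCCGC, TTTGGCGC, TTTCGCGC or TTTGCCGC, and for the CHR element of cell cycle genes, as TTTGAA or TTCGAA. Matches are in capitals.
CDCA5: TTTCCCGCagggcgggtaaTTCGAA
SMC1A: cactgcggcgTTTCCCGCgcgggctacc
STAG1: agcggccacgTTTCCCGCcccgctggtg
STAG2: gttggggggtTTTGGCGCcacttttgtt
The CDCA5 stretch lies on the minus strand at chr11:65084061-65084085 and holds both motifs, from 45 to 21 bases before the start, with 11 bases between them. The SMC1A stretch is at chrX:53422657-53422684 and the STAG1 stretch at chr3:136752544-136752571, both on the minus strand, and the STAG2 stretch at chrX:123961997-123962024 on the plus strand. E2F letters were in 4 of the 10 promoters, against 3.31% of 35116 promoters of the same length, and CHR letters in 3, against 16.4%. CDCA5 was the only one of the 7 members with both. SMC1A has the match in 1 of its 2 promoters and STAG2 in 1 of its 3. SMC3 and PDS5B held CHR letters without E2F letters, and PDS5A held neither. The CCAAT box, searched as CCAAT on both strands, was in 5 of the 10 promoters, those of STAG1, PDS5A, PDS5B and 2 of STAG2, against 34.6% of all promoters, and not in that of CDCA5. In PC3 cells with miR-99a-3p the log2 ratios of the members with E2F letters were −2.48 for CDCA5, −1.20 for SMC1A and −0.46 for STAG2. STAG1, also with E2F letters, was at −0.73 with Cy5 not well above background. The members without E2F letters were at −0.69 for SMC3, −0.27 for PDS5A and −0.16 for PDS5B. SMC3 lay below the brightest STAG2 probe, but the 4 STAG2 probes spread from −0.63 to 0.86, so no order of the 2 genes is drawn. A match describes the letters only.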

How the data were processed

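RNA of mock (Cy3) and transfected (Cy5) cells was hybridised to 8 Agilent arrays. The authors processed the scans with Agilent Feature Extraction 10.7.3.1. Its deposited log10 ratios of Cy5 over Cy3, the deposited spot error (a score of its error model) and the deposited background-corrected, dye-normalized intensities were used. The log2 ratio is the deposited log10 ratio times 3.32, and the deposited values of the series matrix, used as an alternative, are the same log10 ratios. Outlier and control spots were left out, spots of a probe averaged, and the probe with the highest mean signal taken per gene (58201 probes, 43317 genes).

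The text names all members, those of the 22 further genes past 2-fold, and the 5 nearest genes of CDCA5 and RAD21. Members and lists were chosen with earlier results of these data known. The 10 further genes within 2-fold were named after their values were seen. Mock levels were tested with limma 3.58.1 (R 4.3.3) on all 8 mock channels. A fit with the 4 mock RNAs was added after the data were seen. The step was tested on simulated data. Python 3.11.15, pandas 2.3.3, numpy 2.4.6 and matplotlib 3.10.9 did the rest. Between 44.5% and 49.2% of gene spots were well above background in Cy3. Spike-in ratios had a slope of 0.882 to 0.900 on their expected values, so log2 ratios are somewhat compressed. The number of arrays limits the precision.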

Additional observations from a re-analysis of the deposited data

Results flagged for a closer look

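With miR-99a-3p, 6 members lay beyond their spot error on opposite sides of mock in PC3 and FaDu cells, as did 20.1% of the 17478 genes detected on both arrays. CDCA5 was at −2.48 in PC3 and 1.16 in FaDu cells. ESCO2 was at −3.46, with Cy5 not well above background, and 1.60. RAD21 was at −0.61 and 0.37, and SMC3 at −0.69 and 0.25. PDS5A was at −0.27 and 0.70, but its probes did not give 1 direction in FaDu cells. ESCO1 was turned the other way, at 0.49 and −0.31. The differences were not tested, since each line had 1 array with this miRNA.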

How the results depend on the processing

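CDCA5 in PC3 cells with miR-99a-3p stayed between −2.55 and −2.48 and in FaDu cells between 1.10 and 1.16 under every setting run. With normexp (offset 50) and loess, the median of the regulators less that of the core was 0.55 in FaDu cells with miR-99a-3p, 1 member lay below −1 in PC3 cells with miR-150-3p, and 0 lay above 1 in FaDu cells with miR-99a-5p. ESCO2 was then −1.69 in PC3 cells with miR-99a-3p. PDS5A turned with the mean over probes (−0.058 with miR-99a-5p and −0.082 with miR-99a-3p in FaDu) and with the lowest probe (−0.33 and −1.07). With the lowest probe SMC1A was −0.19 with si-FOXQ1-1, 2 members lay below −1 in FaDu cells with miR-99a-3p and 1 in PC3 cells with miR-100-3p, and regulators less core was 0.12 in PC3 cells with miR-99a-3p. Centred on the array median, 1 member lay below −1 with miR-100-3p. With ESCO2 and CDCA5 alone as regulators, the difference from the core was −2.28 in PC3 cells with miR-99a-3p, from the unmeasured Cy5 signal of ESCO2. With ESCO2 at its bound in the deposited signals, they lay at least 1.64 below the core. The difference was −0.98 with miR-150-3p, −0.27 with miR-150-5p, 1.13 in FaDu cells with miR-99a-3p and 0.37 with si-FOXQ1-1. At a threshold of 0.58, members below its negative numbered 6 with miR-99a-3p (16.7% of all genes), 3 with miR-100-3p (8.96%) and 1 with miR-150-5p (10.2%) in PC3 cells and 1 with si-FOXQ1-1 (8.51%), and 5 lay above it in FaDu cells with miR-99a-3p (18.3%). The cause of these moves was not tested beyond what each setting does.

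For mock levels, the mean over probes turned PDS5A (−1.24 for PC3 less FaDu, 0.50 for FaDu less PANC-1) and SMC1A (0.30 for PC3 less PANC-1). Averaging channels of 1 mock RNA left 5 calls between FaDu and PANC-1. No paired analysis was possible because the labels give no replicate numbers and a condition is 1 array. Dim signals limit STAG1 on all arrays and ESCO2 in PC3 cells with miR-99a-3p.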
